A study of Mus musculus with 76 samples.

Results

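RSK2 is a serine/threonine kinase of the p90 ribosomal S6 kinase family, and tumours that grew with it as the introduced gene were compared with tumours of 12 other introduced genes. Gene expression had been measured on Affymetrix arrays in 76 mouse tumour samples, of which the 6 labelled with the introduced gene RSK2 are described here. They were chosen by that label alone, with no use of measured values. The other 70 arrays held 6 each for ErbB3, FGFR2aIIIb, FGFR2aIIIc, FGFR3, HER2, MAP3K7, MAP3K11, PIP5K1B, RON+MSP, RONd160 and TNK2, and 4 for FAK1.

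All groups shared the C57BL/6 strain and the same starting tumour model, a genetically engineered one driven by HER2(V659E) under doxycycline control. In this directed complementation design doxycycline is withdrawn, HER2 falls silent, and 1 further gene is supplied to carry growth in its place. The question of the comparison was which genes set RSK2-carried tumours apart from tumours carried by the other genes. Only the MAP3K11 group is labelled with cachexia, the wasting of the body in cancer. The labels give the tissue as tumour, and name no organ, age, promoter, species of the introduced gene, animal or tumour line. An effect of the introduced gene and a difference between lines therefore cannot be told apart, and p-values measure only the spread between these arrays.

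RSK kinases sit at the end of the RAS, RAF, MEK and ERK cascade. ERK and the kinase PDPK1 activate them. They phosphorylate transcription factors such as CREB, components of translation control, and the receptor tyrosine kinase EPHA2. ERK itself induces genes that damp the cascade, among them dual-specificity phosphatases, which are commonly read as a sign of its output.

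The 6 arrays carry the labels T1, T2 or T3 with a replicate number (T1-1, T1-2, T2-1, T2-2, T2-3 and T3-1), and the meaning of T is not given. They fell into 3 pairs. Pair A holds T1-1 and T2-2, pair B holds T1-2 and T2-3, and pair C holds T2-1 and T3-1. Across the medians of 19 autosomes, r within these pairs was 0.961 to 0.986, against -0.28 to 0.23 between the other RSK2 arrays, a gap that the matching favours. With chromosome medians removed, which the matching did not use, r was 0.54 to 0.83 within pairs and 0.14 to 0.50 between them. Single arrays of other groups came close, with r of up to 0.921 by chromosome (T1-2 with a FAK1 array) and 0.602 with chromosome medians removed (T2-3 with an ErbB3 array), the latter above the lowest value within a pair. Every group of the series was matched in this way, which places all 76 arrays in 38 pairs whatever their likeness. Median r by chromosome was 0.957 within the 38 pairs and 0.161 between other arrays of a group. Within pairs it fell to 0.473, in MAP3K11, and between arrays of different groups it reached 0.935. The labels do not say whether the arrays of a pair share a tumour, an animal or a line. Pairs were treated as a random block in the test. Values are log2, array medians were 5.50 to 5.55 in RSK2 and 5.45 to 5.56 in all 76 arrays, and bacterial control probe sets gave a median of 2.95.

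One array stood apart within its pair. T2-2 had 58 genes at least 2 log2 units above each of the other 5 RSK2 arrays, led by Dsp, Perp, Krt1 and Krt14, which are genes of stratified epithelium such as skin. Its list mean for basal epithelium and keratinocytes was 3.06 relative to all arrays, against -0.19 to -0.10 in the other 5 RSK2 arrays and -0.42 to 1.82 in the other groups. None of these 58 genes was called, against 2.59% of all genes tested.

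Against the mean of the other 12 groups, each weighted equally, 359 of 13868 genes tested (2.59%) were called, at an adjusted p under 0.05 by limma with Benjamini-Hochberg adjustment. Of these, 207 were higher in RSK2 (1.49%) and 152 lower (1.1%), and 73 differed by at least 2-fold, 64 of them higher and 9 lower. In 313 called genes all 6 RSK2 arrays were above, or all 6 below, the mean of the other groups, which was also so for 21.4% of all genes tested. No gene separated the 6 arrays completely from the other 70, in either direction (0% of genes tested).

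The calls leaned on pair A. Without it, 1 gene was called, Jph2, although 353 of the 359 kept their direction, and the median size of their difference went from 0.61 to 0.43. Without pair B there were 553 calls and without pair C 249, and without T2-2 alone there were 159. Of the 46 called genes named by rule below, 16 lost their call without T2-2, at adjusted p of 0.0544 to 0.114, with differences that moved by at most 1.18 times. These were Dusp6, Phlda1, Epha2, Creb1, Pde4d, Tek, Myh11, Mdm2, Fzd7, Fgf7, Prelp, Apod, AW551984, Lama5, Cdh2 and Eml5. Without pair A, 45 of the 46 lost it, and the difference is given below for those whose size moved by over 1.5 times. A fit that counts the paired arrays as separate called 2530 genes (18.2%), of which 1210 were higher (8.73%) and 1320 lower (9.52%). Fibroblast genes also moved with the calls: with the mean of a fibroblast marker list as a covariate, 12 of the 359 genes remained called, and no other gene was. All 359 kept their direction. Their median difference went from 0.79 to 0.50 for genes called higher and from -0.41 to -0.29 for genes called lower. That list mean was itself highest in RSK2, so the covariate also takes up part of the contrast.

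**Figure D1:**
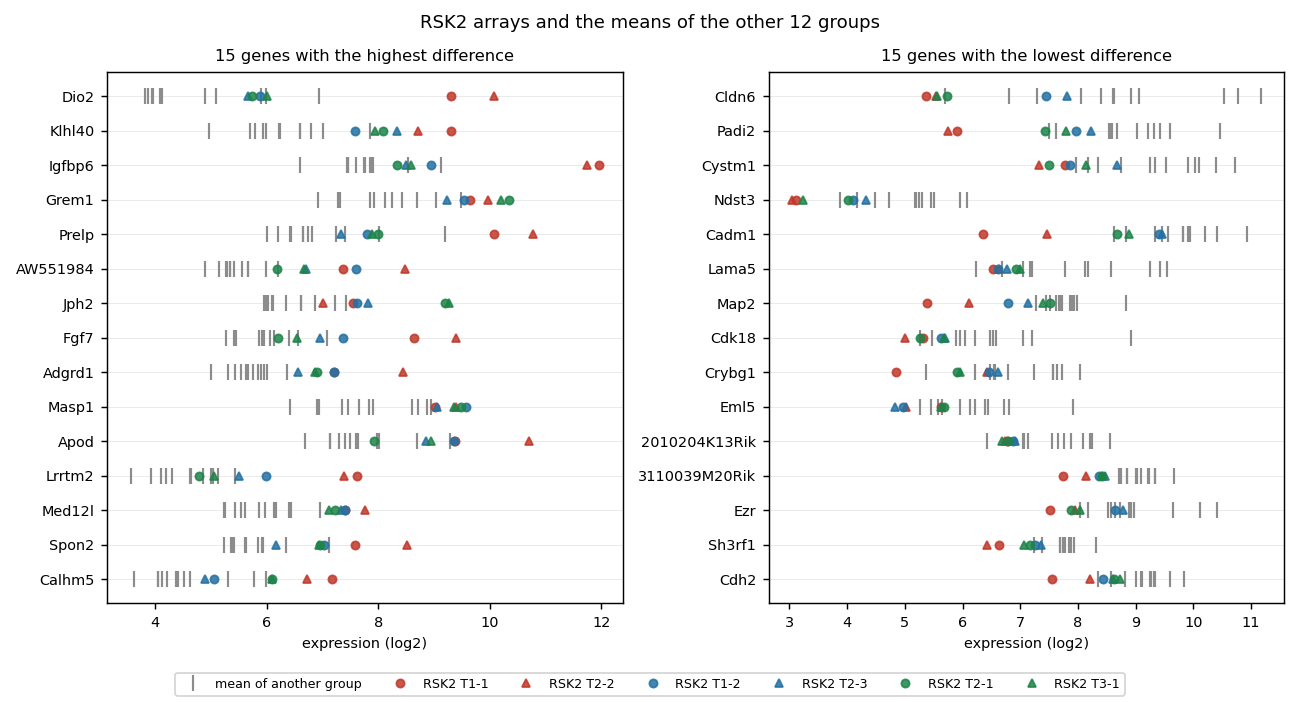
Expression (log2, x axis) of the 15 genes with the highest difference (left) and the 15 with the lowest (right) among called genes with all 6 RSK2 arrays on 1 side of the mean of the other groups and no link to muscle. Coloured points are the 6 RSK2 arrays by pair (red pair A, blue pair B, green pair C), and grey ticks are the means of the other 12 groups. Dio2 and Igfbp6 are highest in the red points, while Grem1, Masp1 and Med12l are high in all 3 pairs.

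The mouse gene of RSK2 itself, Rps6ka3, did not differ. Its levels were 9.62 and 9.89 in pair A, 9.74 and 9.87 in pair B and 9.71 and 9.72 in pair C, against a mean of 9.81 over the other groups. All 6 values lay within the 9.41 to 10.12 of the other 70 arrays. The difference was -0.05 (SE 0.08, adjusted p = 0.774), and 2 further probe sets differed by 0.05 and -0.21. The labels do not give the species of the introduced gene, and a human transcript need not be seen by mouse probe sets, so these values do not check the label.

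Around RSK2 in the cascade, 0 of 15 tested genes of the RSK family and ERK cascade were called in either direction (2.59% of all genes), with a median difference of -0.09 against -0.02 for all genes tested. They were the kinases Map2k1 (-0.11), Map2k2 (-0.06), Araf (-0.09) and Pdpk1 (-0.07), the adaptors Grb2 (-0.06), Shc1 (-0.28) and Pea15a (-0.10), the exchange factors Sos1 (-0.02) and Sos2 (-0.38), the GTPase Nras (-0.17), the scaffold Ksr1 (0.35), Braf (-0.01), and the relatives Rps6ka5 (-0.33) and Rps6ka6 (-0.93) beside Rps6ka3. At an unadjusted p under 0.05, 1 of the 15 was higher and 3 were lower, against 9.1% and 9.56% of all genes. Without the pair block 3 of the 15 passed by limma, Ksr1 higher, and Shc1 and Sos2 lower.

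Genes that report ERK output were lower where they were called. Of 18 tested members of the ERK feedback and output list, 3 were lower and 0 higher (1.1% of all genes were lower), the median difference was -0.18, and 1 of the 18 had a difference above 0. Dusp6, a phosphatase that ERK induces and that acts on ERK, was at 10.24 and 10.09 in pair A, 11.18 and 11.29 in pair B and 10.90 in both arrays of pair C. The mean of the other groups was 11.30, so pair A was far below it and pair B close to it. Only MAP3K11, at a mean of 10.46, was below the RSK2 mean of 10.77. The difference was -0.53 (SE 0.16, adjusted p = 0.0479), and it was -0.22 (adjusted p = 0.722) without pair A.

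Phlda1, which growth factor signalling through ERK induces, was at 9.48 and 9.40 in pair A, 9.68 and 9.90 in pair B and 9.88 and 9.84 in pair C, against 10.23. All 6 arrays were below that mean, 50 of the other 70 arrays lay above the highest of them, and RSK2 had the lowest group mean of the 13. The difference was -0.54 (SE 0.14, adjusted p = 0.0275), and -0.44 (adjusted p = 0.0854) with MAP3K11, the group with the highest Phlda1, left out.

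Epha2, a receptor tyrosine kinase that is both induced by ERK and phosphorylated by RSK, was at 8.77 and 8.66 in pair A, 9.72 and 9.58 in pair B and 9.21 and 9.30 in pair C, against 9.77. The difference was -0.55 (SE 0.15, adjusted p = 0.0334), and -0.30 (adjusted p = 0.593) without pair A. The lowest group mean was that of ErbB3, 8.97. With the fibroblast list as a covariate the list's median difference was -0.02, 9 of the 18 genes were above 0, and none of the 3 passed.

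Among 24 immediate early and CREB response genes, 2 were higher and 0 lower (1.49% and 1.1% of all genes), with a median difference of -0.02. Dusp1, a nuclear phosphatase switched on within minutes of stimulation, was at 10.88 and 11 in pair A, 9.23 and 9.10 in pair B and 9.82 and 10.12 in pair C, against 8.91. All 6 arrays were above that mean, and only MAP3K11, at a mean of 11.12, was higher than RSK2. The difference was 1.11 (SE 0.26, adjusted p = 0.0126), and 0.65 (adjusted p = 0.51) without pair A. Pde4d, a phosphodiesterase that degrades cyclic AMP, was higher by 0.69 (SE 0.18, adjusted p = 0.0259), with 7.46 and 7.57 in pair A, 6.80 and 6.67 in pair B and 7.49 and 7.47 in pair C. On the probe set with the highest variance its difference was 0.28 (adjusted p = 0.603). The means there, 3.35 in RSK2 and 3.07 in the other groups, were close to the control level of 2.95.

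Of 19 tested RSK substrates, 1 was called, and it was lower (1.1% of all genes were lower). Creb1, the transcription factor that RSK phosphorylates, was at 8.39 and 8.46 in pair A, 8.63 and 8.80 in pair B and 8.71 and 8.63 in pair C, against 8.87. The difference was small but one-sided, at -0.26 (SE 0.07, adjusted p = 0.0307). It was -0.18 (adjusted p = 0.523) without pair A, and -0.30 (adjusted p = 0.268) on the probe set with the highest variance. On a probe set of similar level the means were 8.51 and 8.60, a difference of -0.10. Further Creb1 probe sets differed by -0.27, -0.15 and, below the control level, 0.08. MAP3K11, at a mean of 8.55, was below the RSK2 mean of 8.60. The median of the substrate list was -0.02, the same as for all genes tested.

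**Figure D2:**
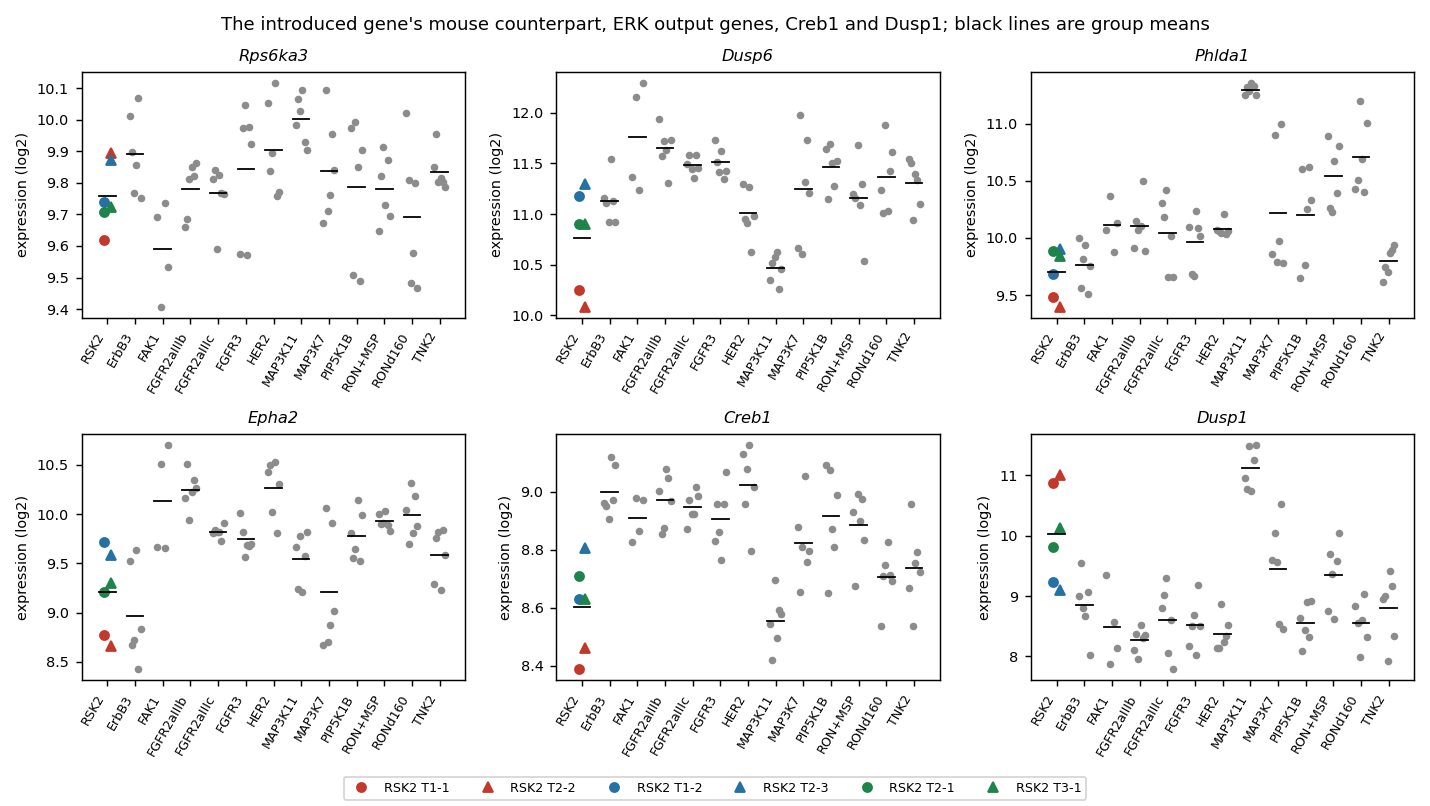
Expression (log2, y axis) in every array of Rps6ka3, 3 ERK output genes, Creb1 and Dusp1, by introduced gene (x axis). Coloured points are RSK2 arrays by pair, grey points other arrays, and black lines group means. Pair A (red) is the lowest of the RSK2 pairs for Dusp6, Phlda1, Epha2 and Creb1 and the highest for Dusp1.

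Because CREB is a substrate of RSK, the promoters of called genes were searched for its binding element. The RefSeq windows of the GRCm38.p6 assembly run from 250 bases before to 50 after a gene's start. The full palindrome TGACGTCA, the same on both strands, stood in 3 of 156 genes called higher that had a window (1.92%) and in 5 of 127 called lower (3.94%), against 3.29% of 11111 tested genes with one. The 4 stretches below are shown because these called genes of the report hold the element, 2 of them from genes that were higher and 2 from genes that were lower. Capitals mark TGACGTCA and each stretch is written 5′ to 3′ on the gene's own strand.
Dio2 (higher, chr12:90739066-90739193, minus strand): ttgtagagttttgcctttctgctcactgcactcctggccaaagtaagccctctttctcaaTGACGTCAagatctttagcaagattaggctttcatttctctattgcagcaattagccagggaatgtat
Dusp1 (higher, chr17:26508548-26508675, minus strand): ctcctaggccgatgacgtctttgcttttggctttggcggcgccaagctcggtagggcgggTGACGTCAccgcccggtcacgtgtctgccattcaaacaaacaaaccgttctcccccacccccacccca
Epha2 (lower, chr4:141301128-141301220, plus strand): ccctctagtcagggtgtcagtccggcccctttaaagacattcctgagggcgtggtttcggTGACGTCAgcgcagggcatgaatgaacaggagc
Cldn6 (lower, chr17:23679265-23679364, plus strand): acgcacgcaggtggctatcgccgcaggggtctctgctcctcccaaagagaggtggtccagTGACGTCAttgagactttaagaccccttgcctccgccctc

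The element began 95 bases before the start in Dio2, 143 in Dusp1, 33 in Epha2 and 40 in Cldn6. Its shorter part, TGACG or CGTCA, stood in 36 of 156 genes called higher (23.1%) and 43 of 127 called lower (33.9%). Among tested genes with a window it stood in 33.3%. The AP-1 element, TGAGTCA or TGACTCA, stood in 6.41% of genes called higher and 5.51% called lower, against 4.98% of tested genes. The serum response (CArG) element stood in 3.85% and 2.36%, against 1.54%. These are matches of letters in a window, with no measure of binding.

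The 15 genes with the highest difference among called genes without a muscle link, all 6 arrays on 1 side, were from 1.42 to 2.37 higher. In 13 of the 15 genes with the highest difference RSK2 had the highest mean of the 13 groups, and in the other 2, Prelp and Apod, it was second to ErbB3. Dio2, the deiodinase that makes active thyroid hormone inside cells, was at 9.30 and 10.07 in pair A, 5.88 and 5.66 in pair B and 5.73 and 6.01 in pair C, against 4.73. All 6 were above that mean, but pair A stood at least 3.29 log2 units above the rest. The difference was 2.37 (SE 0.48, adjusted p = 0.00462), and 1.09 (adjusted p = 0.51) without pair A. Its other 2 probe sets differed by 1.02 and 0.20.

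Igfbp6, which binds insulin-like growth factors, had the same shape, with 11.96 and 11.75 in pair A and 8.34 to 8.95 in the other 4 arrays, against 7.78. Its difference was 1.89 (SE 0.40, adjusted p = 0.00531). Prelp, a leucine-rich proteoglycan of connective tissue, was at 10.07 and 10.78 in pair A and 7.34 to 8.0 in the others, against 6.98, a difference of 1.66 (SE 0.46, adjusted p = 0.0334). Fgf7, a mesenchymal growth factor for epithelia that signals through the IIIb form of FGFR2, was at 8.65 and 9.40 in pair A, 7.37 and 6.96 in pair B and 6.21 and 6.55 in pair C, against 6.00, a difference of 1.52 (SE 0.42, adjusted p = 0.0334). In these genes every RSK2 array was above the mean of the other groups, but without pair A the differences of Igfbp6, Prelp and Fgf7 were 0.80, 0.76 and 0.76, and none passed.

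Other genes differed about as much with pair A left out. Grem1, a secreted antagonist of bone morphogenetic proteins, was at 9.65 and 9.96 in pair A, 9.53 and 9.23 in pair B and 10.35 and 10.20 in pair C, against 8.05. The pairs did not overlap, with pair C highest and pair B lowest, and 60 of the other 70 arrays lay below all 6. The difference was 1.78 (SE 0.34, adjusted p = 0.00292), and still 1.78 without pair A, where the adjusted p was 0.155. Masp1, a protease of the complement lectin pathway, was at 9.01 to 9.58 in the 6 arrays against 7.80, with a difference of 1.5 (SE 0.27, adjusted p = 0.00114). Med12l, a paralogue of a Mediator complex subunit, was at 7.11 to 7.76 against 5.91, with a difference of 1.47 (SE 0.31, adjusted p = 0.00482). Grem1, Masp1 and Med12l were also among the 12 genes that stayed called with the fibroblast list as a covariate.

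Hoxa5, a homeobox transcription factor of body patterning, was at 7.89 and 7.43 in pair A, 8.69 and 9.07 in pair B and 8.13 and 8.10 in pair C, against 6.81. Here pair B was the highest and pair A the lowest. The difference was 1.41 (SE 0.29, adjusted p = 0.00462), and TNK2, at a mean of 8.59, was above RSK2. On the other Hoxa5 probe set the means were 6.83 and 6.65, a difference of 0.18. Hoxa5 was the only one of 16 tested Hox genes that was called (2.59% of all genes were called).

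The remaining genes of the highest 15 differed by 1.42 to 1.65. They were Adgrd1, an adhesion receptor coupled to G proteins, Apod, a lipid-binding secreted lipocalin, Lrrtm2, a synaptic adhesion protein, Spon2, a matrix protein of innate immunity, Calhm5, and AW551984, while Klhl40 and Jph2 are described with muscle below. Adgrd1 was highest in T2-2, at 8.44 against 6.56 to 7.21 in the other 5 arrays, and without that array its difference was 1.30 (adjusted p = 0.0179). Without pair A, Lrrtm2 and Calhm5 differed by 0.76 and 0.94, and neither passed. AW551984, Apod, Adgrd1, Prelp and Spon2 correlated with the fibroblast list at r of 0.83, 0.73, 0.67, 0.58 and 0.51 over the 70 arrays of the other groups, group means removed. With that list as a covariate their differences were 0.54, 0.50, 0.78, 0.77 and 0.83, and none passed.

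The 15 lowest genes by the same rule differed by -2.42 to -0.77. RSK2 had the lowest mean of the 13 groups in 7 of these 15 and the second lowest in 7. In Lama5 both ErbB3 and MAP3K11 were lower than RSK2. Cldn6, a tight junction protein typical of embryonic epithelium, was at 5.37 and 5.54 in pair A, 7.45 and 7.81 in pair B and 5.73 and 5.55 in pair C, against 8.66. Pairs A and C were low and pair B intermediate, and ErbB3, at a mean of 5.69, was the only group below RSK2. The difference was -2.42 (SE 0.49, adjusted p = 0.00426), and -2.02 (adjusted p = 0.317) without pair A. Krt18, a keratin of simple epithelium, was called but is not among these 15, because T2-3 lay above the mean of the other groups. It was at 7.43 and 6.86 in pair A, 12 and 12.11 in pair B and 10.77 and 10.79 in pair C, against 12.09. Pair B was thus at the level of the other groups and pair A far below. ErbB3, at a mean of 8.63, was again the only group below RSK2, at 9.99. The difference was -2.07 (SE 0.47, adjusted p = 0.0107), and -0.66 without pair A and -3.11 without pair B. Krt18 was the only one of 15 tested luminal epithelial genes called lower (1.1% of all genes were lower).

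Padi2, which turns arginine in proteins into citrulline, was at 5.91 and 5.75 in pair A, 7.96 and 8.23 in pair B and 7.43 and 7.79 in pair C, against 8.87, a difference of -1.68 (SE 0.35, adjusted p = 0.00462). RSK2 had the lowest mean of the 13 groups, with all 6 arrays below the mean of the others. Cadm1, an adhesion molecule of the immunoglobulin family, was at 6.36 and 7.46 in pair A and 8.67 to 9.46 in the other 4, against 9.73, a difference of -1.36 (SE 0.32, adjusted p = 0.0129). Without pair A, Padi2 differed by -1.0 (adjusted p = 0.442) and Cadm1 by -0.62 (adjusted p = 0.563). Ndst3, an enzyme that sulphates heparan chains, was at 3.11 and 3.05 in pair A, 4.10 and 4.32 in pair B and 4.01 and 3.24 in pair C, against 5.10, a difference of -1.45 (SE 0.31, adjusted p = 0.00462). The lowest of these Ndst3 values were close to the control level of 2.95, so the size of its difference is limited by background.

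Lama5, a laminin chain of basement membranes, was evenly low, at 6.52 to 6.99 in the 6 arrays against 7.93, a difference of -1.18 (SE 0.33, adjusted p = 0.0375), although 14 of the other arrays lay below all of them. Cdh2, N-cadherin, was at 7.55 and 8.20 in pair A and 8.44 to 8.73 in the others, against 9.13, a difference of -0.77 (SE 0.22, adjusted p = 0.0448). Ezr, which ties the membrane to actin in microvilli, differed by -0.83 and Sh3rf1, a ubiquitin ligase and scaffold of JNK signalling, by -0.79. The others of the lowest 15 were the microtubule-binding Map2 (-1.06) and Eml5 (-0.91), the kinase Cdk18 (-1.03), Cystm1 (-1.50), Crybg1 (-0.94), 2010204K13Rik (-0.85) and 3110039M20Rik (-0.84). Map2 differed by -0.59 (adjusted p = 0.51) without pair A, and Sh3rf1 by -0.29 (adjusted p = 0.515) on its probe set with the highest variance. On the other Ezr probe set the means were 8.66 and 8.77, a difference of -0.11. With MAP3K11 left out, Ezr, Cdk18 and Eml5 differed by -0.70, -0.81 and -0.75 and did not pass (adjusted p = 0.0526 to 0.0938).

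Marker lists of the cell types a tumour sample can hold were compared next. Endothelial genes were higher: 9 of 18 tested were called higher and 0 lower (1.49% of all genes were higher), with a median difference of 0.68 and all 18 above 0. Plvap, a protein of vessel fenestrae, was at 9.96 and 10.08 in pair A, 9.91 and 9.72 in pair B and 9.75 and 9.93 in pair C, against 9.04. Pair A was highest and pairs B and C overlapped, and 65 of the other 70 arrays lay below all 6. The difference was 0.84 (SE 0.19, adjusted p = 0.00931).

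Tek, the endothelial receptor of angiopoietins, was at 7.07 and 7.49 in pair A, 6.63 and 6.45 in pair B and 6.62 and 6.78 in pair C, against 5.75, a difference of 1.07 (SE 0.29, adjusted p = 0.0275). Erg, a transcription factor of endothelial identity, was at 7.14 and 6.27 in pair A, 7.12 and 7.03 in pair B and 7.11 and 7.42 in pair C, against 6.2, a difference of 0.81 (SE 0.21, adjusted p = 0.02). T2-2 was its lowest array, and without it the difference was 0.97. Mmrn2, a matrix protein made by endothelium, was at 8.71 to 9.21 against 8.13, a difference of 0.76 (SE 0.21, adjusted p = 0.0315). The other called members were Kdr (0.67), the main receptor for VEGF on endothelium, Eng (0.47), Esam (0.71), Egfl7 (0.64) and Robo4 (0.58).

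The endothelial list was not highest in pair A. The list mean, relative to all arrays, was 0.64 and 0.33 in pair A, 0.65 and 0.50 in pair B and 0.60 and 0.77 in pair C, against -1.37 to 0.86 in the other arrays. RSK2 had the highest mean of the 13 groups, 0.58, ahead of MAP3K11 at 0.36, and 1 of the other 70 arrays lay above all 6. Without pair A the median difference of the list was 0.75, with 0 genes passing, and without T2-2 6 passed. With the muscle list mean as a covariate 1 passed, Plvap at 0.83, while Tek, Erg and Mmrn2 were at 1.00, 0.73 and 0.70. With the fibroblast list mean as a covariate the median was 0.28, 16 of 18 were above 0 and 0 passed, with Plvap, Tek, Erg and Mmrn2 at 0.41, 0.42, 0.49 and 0.32. In bulk tumour RNA, more cells of a type and more RNA per cell cannot be told apart.

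Fibroblast and matrix genes leaned the same way. Their list mean was 0.52 and 1.02 in pair A, 0.67 and 0.11 in pair B and 0.51 and 0.73 in pair C, against -1.42 to 0.87 in the other arrays, and RSK2 again had the highest group mean, 0.59 against 0.42 for MAP3K11. Of 20 tested members 19 were above 0, with a median difference of 0.52, but 1 was called, and it was higher (1.49% of all genes were higher). Without the pair block 11 were higher (8.73% of all genes). The called member was Pdgfra, the receptor that marks many fibroblasts, at 10.23 and 10.44 in pair A, 9.68 and 9.12 in pair B and 9.87 and 10.13 in pair C, against 8.65. All 6 were above that mean, and the difference was 1.26 (SE 0.30, adjusted p = 0.0152). It was 0.60 with the fibroblast covariate, but that list mean includes Pdgfra itself, so some decrease is built in.

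Over the other 70 arrays, called genes correlated with both the fibroblast and the endothelial list. Of the 207 genes called higher, 51 (24.6%) correlated at r of 0.6 or more with the fibroblast list, as did 2.64% of all genes tested. The median r with that list was 0.46 for genes called higher, -0.38 for genes called lower and -0.02 for all tested genes. With the endothelial list it was 0.45, -0.38 and 0.0. The part of stromal content in the calls was not tested beyond the covariate. Besides Grem1, Masp1, Med12l, Calhm5, Hoxa5 and Jph2, the genes that stayed called with the fibroblast covariate were Apbb1, Ndrg4 and P3h2, which were higher, and Msx1, Phc2 and Ano4, which were lower. Apbb1, an adaptor of the amyloid precursor protein, differed by 0.88 (0.78 with the covariate), Ndrg4 by 1.18 (0.79), and P3h2, a collagen prolyl hydroxylase, by 1.37 (1.19). Without pair A these 3 differed by 0.52, 0.78 and 0.58. Msx1, a homeobox repressor, differed by -0.72 (-0.73 with the covariate) and Phc2, a Polycomb subunit, by -0.53 (-0.40), which was -0.33 without pair A. Ano4 lay below the control level in all 6 RSK2 arrays, at 2.39 to 2.91, and the median of the other 70 arrays was also below it, at 2.68. MAP3K11 had the highest mean, 8.48, and the RSK2 mean of 2.62 ranked 11 of 13, so the difference of -0.54 does not set RSK2 below most groups. These 6 were named after their values were seen.

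Other cell types and processes had 0 or 1 gene called per list, against 2.59% of all genes tested. Lists this short cannot show a lack of calls. Of 13 smooth muscle and pericyte genes, Myh11, the smooth muscle myosin heavy chain, was called (difference 0.93, SE 0.25, adjusted p = 0.0303), with 5.77 and 6.14 in pair A, 5.05 and 4.90 in pair B and 5.32 and 6.12 in pair C, against 4.62, and a difference of 0.53 with the fibroblast covariate. The Wnt list gave 1 of 25, the receptor Fzd7 (0.58, SE 0.15, adjusted p = 0.028), and the growth factor list 1 of 24, Fgf7. The p53 target list gave 1 of 15, Mdm2, the ubiquitin ligase that restrains p53, with a difference of -0.39 (SE 0.10, adjusted p = 0.0213). In the mesenchymal switch list Cdh2 was the 1 of 14 called. In 22 of the 34 lists no tested gene was called by limma, among them macrophages and monocytes (0 of 15, also 0 at an unadjusted p under 0.05), T and NK cells (0 of 14, also 0), the cell cycle (0 of 26, 1 at that p), oxidative phosphorylation (0 of 27, 2 at that p), and hypoxia and glycolysis (0 of 22, also 0). Of all genes tested, 18.7% passed at that unadjusted p. A list without a call could still lean 1 way. All 21 interferon response genes were above 0, at a median of 0.41, with 2 higher at that p. Of 22 sterol and fatty acid synthesis genes 0 were above 0, at a median of -0.18, with 4 lower at that p. By list mean RSK2 ranked 5 of 13 groups for the interferon list and 11 for the sterol list.

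**Figure D3:**
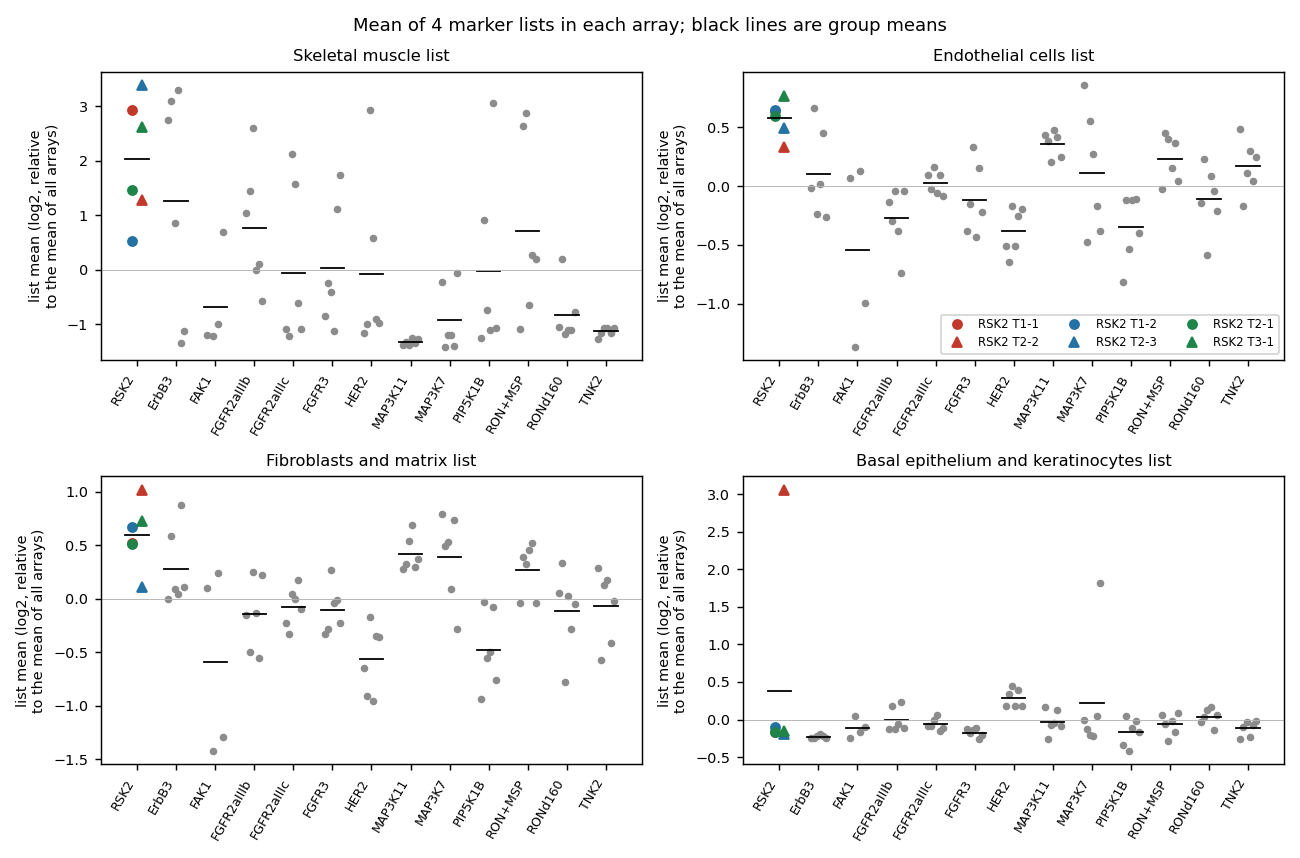
Mean of 4 marker lists in every array (y axis, log2, relative to the mean of all arrays) by introduced gene (x axis). Coloured points are RSK2 arrays by pair, grey points other arrays, and black lines group means. RSK2 has the highest group mean for the muscle, endothelial and fibroblast lists, and 1 RSK2 array, T2-2, carries the keratinocyte signal at 3.06.

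Skeletal muscle genes were set apart from the rest. Its sarcomere genes are abundant in muscle fibres, and whether muscle was collected with these tumours was not tested. The list mean of 32 skeletal muscle genes was 2.93 and 1.28 in pair A, 0.52 and 3.39 in pair B and 1.47 and 2.62 in pair C, against -1.41 to 3.29 in the other arrays. RSK2 had the highest mean of the 13 groups, 2.03, followed by ErbB3 at 1.26, and 52 of the other 70 arrays lay below all 6. The 2 arrays of pair B differed more than the pairs did, so the signal did not follow the pairs.

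A gene was called muscle-linked if it was on that list or correlated with it at r of 0.6 or more over the other 70 arrays, group means removed. This took 146 of the genes tested, the 32 of the list and 114 others. All 146 were higher in RSK2, by a median of 1.05, against -0.02 for the rest, and 3 of them were called (2.05%, against 2.59% of all genes). These were Unc45b, a chaperone of muscle myosin (1.30, SE 0.33), Actc1, cardiac actin (1.16, SE 0.28), and Vtn, a plasma and matrix protein (0.97, SE 0.28). At an unadjusted p under 0.05 there were 93 (63.7%, against 18.7% of all genes), and without the pair block limma called 118 (18.2% of all genes were called so).

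The largest differences of all were in this group, and none of the 5 passed. Tnnc2, fast troponin C, was at 11.59 and 10.12 in pair A, 8.81 and 12.15 in pair B and 9.99 and 11.22 in pair C, against 6.46. The other groups reached 11.99, so the ranges overlapped widely. The difference was 4.0 (SE 1.60, adjusted p = 0.149), and the adjusted p was 0.00285 without the pair block. Myh4, a fast myosin heavy chain (3.48), Mybpc2 (3.42), Acta1, skeletal actin (3.26), and Tnnt3, fast troponin T (3.25), had adjusted p of 0.15 to 0.182 with the block.

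Klhl40 and Jph2 have muscle roles but fell outside the rule, at r of 0.58 and 0.33. Klhl40, which stabilises thin filament proteins, was at 9.30 and 8.71 in pair A, 7.59 and 8.34 in pair B and 8.09 and 7.95 in pair C, against 6.31, a difference of 2.01 (SE 0.41, adjusted p = 0.00426). With the muscle list as a covariate it was 1.35 (adjusted p = 0.0172). Jph2, which holds the sarcoplasmic reticulum to the cell membrane, was at 7.54 and 7.01 in pair A, 7.62 and 7.82 in pair B and 9.20 and 9.26 in pair C, against 6.44. All 6 were above that mean, and pair C was highest. The difference was 1.62 (SE 0.25, adjusted p = 0.000188), 1.41 (adjusted p = 0.00114) with the muscle covariate, 2.02 (adjusted p = 2.48e-05) without pair A and 1.04 (adjusted p = 0.0336) without pair C. On the other Jph2 probe set the means were 6.55 and 6.17, a difference of 0.37.

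**Figure D4:**
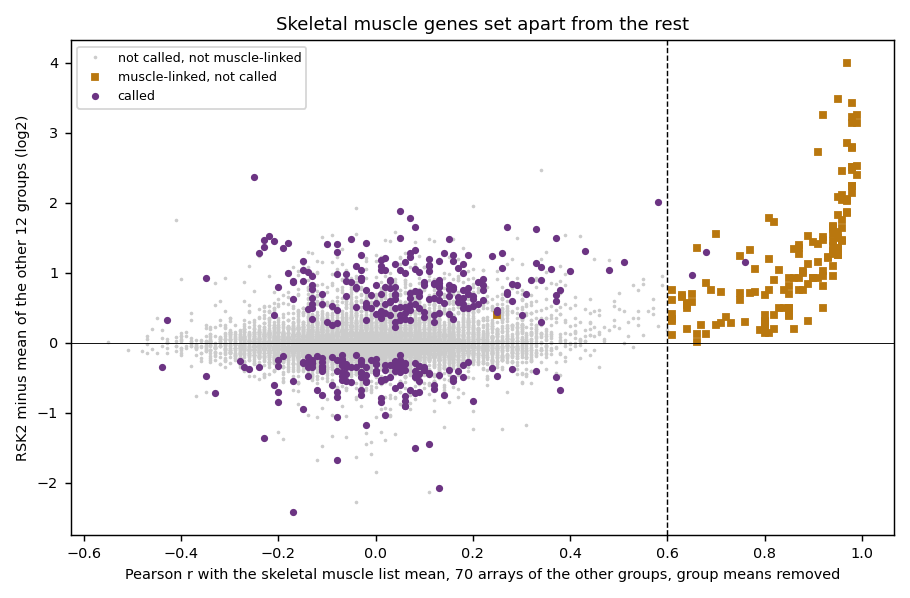
Difference of RSK2 from the mean of the other 12 groups (y axis, log2) for 13868 genes, against each gene's correlation with the skeletal muscle list in the other 70 arrays (x axis). Orange squares are muscle-linked genes that were not called, purple points are called genes, grey points are the rest, and the dashed line marks r of 0.6. Differences in muscle-linked genes reach 4.0, and nearly all called genes lie to the left of the line.

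The 3 pairs also differed strongly from each other. Pair A had 34 genes at least 2 log2 units above the other 4 RSK2 arrays and 11 at least that far below. Of these 45 in all, 10 were among the called genes, against 2.59% of all genes tested. They included secreted regulators of growth: Igfbp2 at 8.22 and 9.45 in pair A against 3.97 to 4.08 in pairs B and C, the follistatin gene Fst at 10.27 and 10.65 against 6.42 to 7.23, and Bmp4 at 9.73 and 9.31 against 6.05 to 6.68. Nr4a2, an immediate early nuclear receptor, was at 8.89 and 9.02 against 6.14 to 6.85. Among the 11 low genes were Krt18 and Tnnt2, at 6.01 and 5.34 against 10.54 to 10.89, a level close to the 10.23 of the other groups.

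Pair B was set off by 1 gene, Cd163, a scavenger receptor of macrophages, at 3.49 and 3.97 against 7.12 to 9.21 in the other 4 arrays. Pair C had 8 genes above the others and 3 below. Aldh1a3, which makes retinoic acid, was at 10.04 and 9.99 in pair C against 5.57 to 7.79, and Actg2, a smooth muscle actin of the gut, at 8.53 and 8.97 against 5.05 to 6.13. Msln, the mesothelial surface protein mesothelin, was at 5.95 and 5.54 in pair C against 8.70 to 9.14. These genes were picked for the gap, so the values are descriptions.

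RSK2 was next set against each other group in turn. No gene passed against all 12 by limma (0 of 13868), with 14 at an unadjusted p under 0.05 in all 12, and 9 passed in all 12 without the pair block. Bmi1, a Polycomb subunit that sustains stem cell renewal, passed against 9 groups, the most of any gene. It was at 9.74 and 9.38 in pair A, 9.76 and 9.87 in pair B and 10 and 9.91 in pair C, against 10.25, with 60 of the other arrays above all 6 and MAP3K11 the only group below. Its difference was -0.48 (SE 0.09, adjusted p = 0.00175).

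The number of genes called ran from 2 against TNK2 (0.0144%) and 9 against FGFR3 (0.0649%) through 24 against MAP3K7 (0.173%), 44 against ErbB3 (0.317%), 126 against FGFR2aIIIc (0.909%) and 143 against RON+MSP (1.03%). It was 470 against FAK1 (3.39%), 994 against FGFR2aIIIb (7.17%), 1130 against PIP5K1B (8.15%), 1207 against RONd160 (8.7%), 2039 against HER2 (14.7%) and 2883 against MAP3K11 (20.8%). The 2 genes that differed from TNK2 were Adamts8, a secreted metalloprotease (-1.77, adjusted p = 0.001), and Rasl10a, a small GTPase (-1.21, adjusted p = 0.0426). These contrasts share the RSK2 arrays, and a low count does not show that 2 groups were alike.

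Called genes were unevenly spread over chromosomes. Chromosome 10 had the largest median difference, -0.09, and 34 of its 661 tested genes were called (5.14%, against 2.59% of all genes), 29 of them lower. Its median was -0.15 and -0.17 in pair A, lower than any of the other 70 arrays, whose range was -0.08 to 0.27, and -0.06 to -0.03 in the other 4 RSK2 arrays. Dusp6, Phlda1 and Mdm2 lie on chromosome 10, and the part of this shift in their lower levels in pair A was not tested. Chromosome 4 had 38 of 847 genes called (4.49%), 21 of them lower, at a median difference of -0.04. Chromosome 12 had the next largest median difference, -0.08, with 21 of 482 genes called (4.36%), 14 of them lower, and medians of -0.11 and -0.14 in pair A. In pair B the chromosome 14 medians of 0.22 and 0.27 exceeded those of all the other 70 arrays, at most 0.15, but 6 of its 468 genes were called (1.28%).

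**Figure D5:**
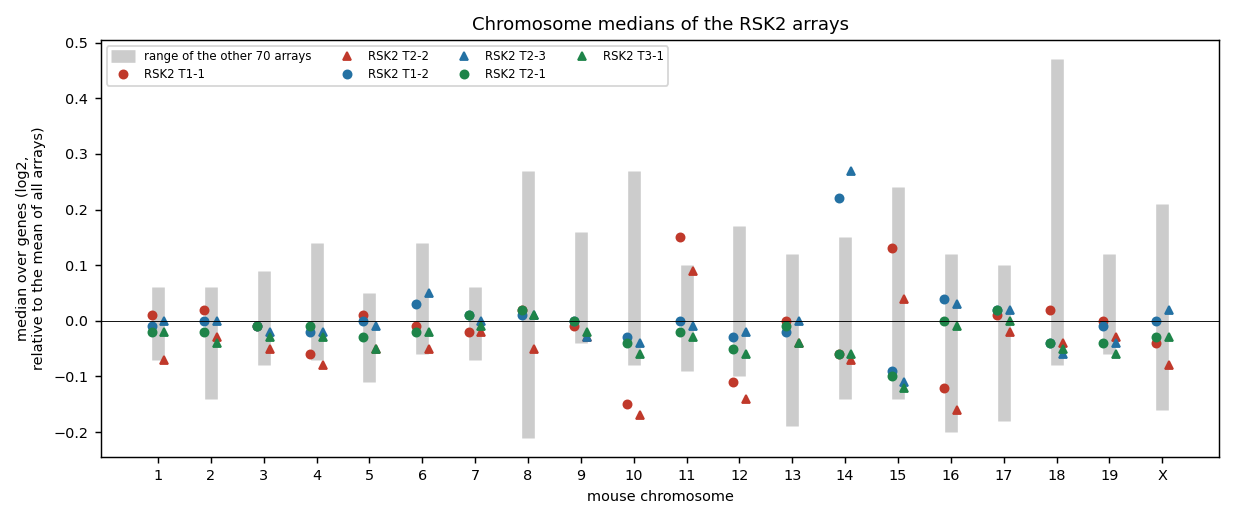
Median expression over the genes of each mouse chromosome (x axis) relative to the mean of all arrays (y axis, log2). Coloured points are the RSK2 arrays by pair, and grey bars span the other 70 arrays. Both arrays of pair A lie below the grey bar on chromosome 10 and both arrays of pair B lie above it on chromosome 14.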

How the data were processed

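Total RNA of 76 tumour samples was put on Affymetrix arrays, per the labels' protocols. For 45101 probe sets the authors deposited log2 values; affy is named in the submitters' processing notes, while the normalization behind the values is not stated in the sources used here. Values were used as deposited. For 18194 genes the probe set of highest mean over all arrays was taken, and 13868 genes above the 40th percentile of their array in at least 4 arrays were tested. All arrays were fitted by limma 3.58.1 (statmod 1.5.0, R 4.3.3), with introduced gene and T label as terms and the 38 pairs as a random block (correlation 0.628), leaving 61 residual degrees of freedom. Tests were two-sided, with Benjamini-Hochberg adjustment over the 13868 genes. Fitted differences are adjusted for T and can depart slightly from differences of means. SE is the moderated standard error.

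Pairs were matched within groups on autosome medians. Named genes are the 15 highest and 15 lowest called genes with all 6 arrays on 1 side and no muscle link, 5 muscle-linked genes, and up to 4 called members of each list; other names were chosen after their values were seen. The fit was tested on simulated data. The 34 lists name 672 members, 618 measured and 565 tested. Members, lists and tests were chosen with earlier results of these data known. Gene positions come from GRCm38.p6, which 34754 probe sets matched. One gene, named in the title of the series, is left out.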

Additional observations from a re-analysis of the deposited data

Results flagged for a closer look

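In 100 checks of named genes and list means over the 6 RSK2 arrays, 8 had 1 array further from its nearest neighbour, relative to the whole range, than Dixon's 95% critical value, a rate that chance gives in about 1 of 20. T2-2 was the array in 7 of the 8. Its Adgrd1 value was 8.44, with the next RSK2 array at 7.21, its Erg value 6.27, with the next at 7.03, and its Rps6ka6 value 6.10, with the next at 3.40. List means in T2-2 were 3.06 for basal epithelium and keratinocytes (next -0.10), 0.74 for the mesenchymal switch (next 0.14), 0.33 for p53 targets (next -0.13) and 0.48 for growth factor receptors and ligands (next 0.14). In T1-1 the luminal mammary epithelium list mean was -0.58, with the next array at -0.07.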

How the results depend on the processing

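The count of 359 became 2530 with no pair block, 629 with no filter, 185 with the stricter filter, 1286 with median centring, 220 with the muscle covariate and 56 at an adjusted p under 0.01. It became 12 with the fibroblast covariate and 270 with the keratinocyte covariate, both chosen after seeing the data. Leaving out pair A, B or C gave 1, 553 and 249, and leaving out 1 array gave 159 (without T2-2) to 614 (without T2-3), with 233 without T3-1. Median centring moved the median of all genes from -0.02 to -0.11, and 17.7% of its calls were higher against 57.7%; quantile normalization gave 413 calls, 48.4% higher. Pair means, no T term, the highest-variance probe set, the trended robust prior and MAP3K11 left out gave 296, 409, 433, 371 and 449. Replicate numbers did not pair samples across groups (median r -0.014), and the replicate block in place of the T term gave 371. The count against all 12 groups was 9 with no pair block and 0 otherwise, leave-one-out fits included (0 to 0). None of the 46 named called genes changed sign in these alternatives, while 9 of the 20 named genes that were not called did, among them Myh4 (-0.04) and Tnnt3 (-0.03) with the muscle covariate. Myh4 and Tnnt3 are on the muscle list, so that covariate includes their own values. Of 46 named called genes, 45 lost their call without pair A, 40 with the fibroblast covariate, 32 with pair means, 29 at an adjusted p under 0.01, 17 without pair C and 16 without T2-2. The muscle list mean differed by 2.22, also over its tested members, and 171 or 123 genes were muscle-linked at r of 0.5 or 0.7, against 146. Levels near 2.95 carry little signal above background, and the number of pairs limits precision.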
